A study of Mus musculus with 31 samples.

Results

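The 13 mice of the Q150 set fell into 2 series by the animal number in their labels, 8 mice numbered 1, 2, 3, 34, 35, 78, 79 and 80 (low-numbered) and 5 mice numbered 402, 403, 404, 420 and 421 (high-numbered). Each of the 3 genotypes held mice of both series, so exon usage was compared between the series with genotype as a term. These 13 mice were chosen by number from the 31 mice of a study that measured splicing in mouse models of Huntington's disease (HD). HD is caused by an expanded glutamine repeat in huntingtin. The Q150 mice, of strain B6.129P2-Htttm2Detl/150J, carry that expansion in their own huntingtin gene and therefore express it in every cell that uses the gene. The wild-type (WT) mice had 7 glutamines on both alleles (Q7/Q7), HET mice had 150 on 1 allele (150Q/7Q), and HOMO mice had 150 on both (150Q/150Q), although the genotype field of the mutant mice opens with the name Q175. The low-numbered mice were WT 1, 79 and 80, HET 2, 3 and 78, and HOMO 34 and 35. The high-numbered mice were WT 402 and 404, HET 420, and HOMO 403 and 421. All were untreated, the tissue was the cortex of 1 hemisphere, and the methods give an age of 7 months. What the number ranges stand for is not given in the sources used here, nor is the sex of single mice, so litter, cohort, sex, age within the group and day of preparation cannot be told apart from the series.

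Alternative splicing lets a gene make several mRNAs by keeping or skipping an exon, or by moving a splice site. In brain it sets the domains of channels, receptors, adhesion molecules and cytoskeletal proteins, and it is steered by RNA-binding proteins whose own transcripts are often spliced in the same way. RASL-seq reads this with pairs of DNA probes that anneal side by side across known splice junctions, are ligated on the RNA and are then counted by sequencing. Every event had a short count, for the junction that skips the alternative sequence, and a long one, for a junction into it. Exclusion is the short count as a percent of both. The event total is their sum after each mouse was scaled to 1000000 counts (CPM). Changes are differences in log2(short/long), and a positive one means more exclusion in the high-numbered mice. Events are said to have been called when the limma adjusted p was under 0.05 over all 1785 events, in 1463 genes. Cassette exons made up 96.4% of them. No sequence is given here, since the probe sequences were not used and the positions in the files were not on the genome available.

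The mice of the 2 series stood apart on the first principal component of the ratios and of the totals. Total counts ran from 2970207 to 5219877 per mouse, with both ends in high-numbered mice (WT 404 and HOMO 421). After genotype means had been removed, the first principal component of the short-to-long ratios held 24.3% of the variance. Its scores were from -7.58 to -3.73 in the low-numbered mice and from 4.52 to 13.1 in the high-numbered mice, so the series did not overlap. The genotypes held unequal numbers of each series, so the size of a score is not compared between genotypes. The first component of event totals held 39.8%, with scores from -6.03 to -1.69 and from 4.16 to 8.15. In 9 pairs of mice of the same genotype and series, the root mean square difference of log2 ratios over events was 0.467 to 0.549. In 13 pairs of the same genotype that crossed the series it reached 0.626. The medians were 0.494 and 0.573, and the ranges of the 2 kinds of pair overlapped. Each mouse was also placed by a fit that had not used it, over the events called in that fit, on a scale where 0 is the fitted low-numbered level of its genotype and 1 the high-numbered level. The medians were -0.03 to 0.35 for the 8 low-numbered mice and 0.66 to 0.98 for the 5 high-numbered mice. The mice nearest to the middle were both HOMO, 34 at 0.35 and 421 at 0.66.

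**Figure D1:**
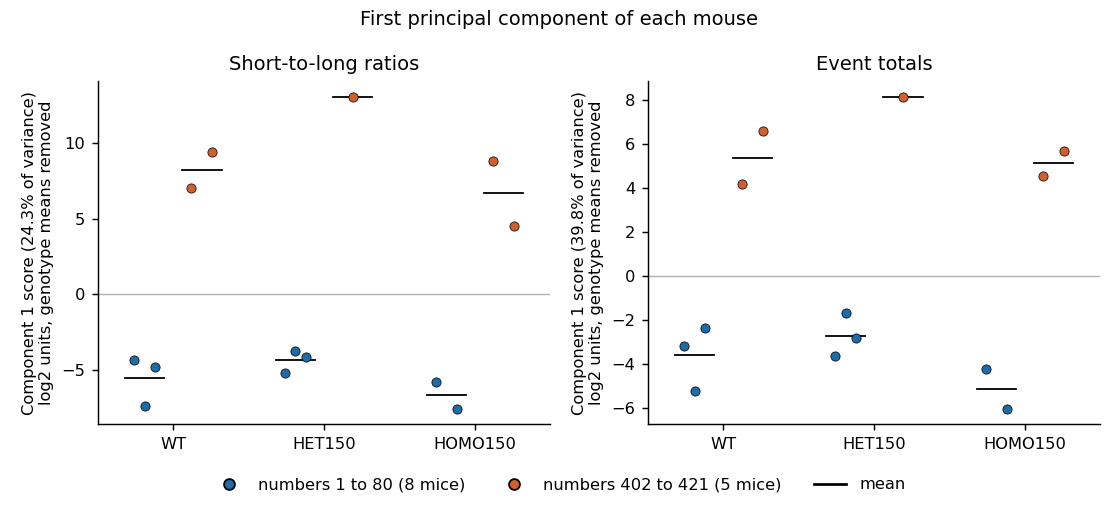
Score of each of the 13 mice on the first principal component of the short-to-long ratios (left, 24.3% of variance) and of event totals (right, 39.8%), in log2 units with genotype means removed. Points are mice and bars are means by genotype and series. In both panels every low-numbered mouse lies below 0 and every high-numbered mouse above it.

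Of the 1785 events, 271 were called (15.2%), 104 with higher exclusion in the high-numbered mice (5.83%) and 167 with lower exclusion (9.36%). They lay in 252 genes, and 268 of them had counts of their own, the others being copies with identical counts. Most of the changes were small. The median absolute change of called events was 0.486 on the log2 scale, or 4.73 percentage points of exclusion, and 30 events differed by 10 points or more. Over all events the median change was -0.04. Within every genotype, all high-numbered mice lay on the same side of all low-numbered mice in 167 events (9.36%), of which 54 were called with higher and 90 with lower exclusion. Without HET 420, the lone high-numbered HET mouse, 154 events were called, and without all HET mice 124. With no genotype term 94 were called, and without the variance trend 125. All 271 events kept their direction in these 4 fits. The fit without the variance trend has the same changes as the main fit, so it could not alter a direction. The largest adjusted p among called events was 0.049, in Ptpru with a log2 change of 0.88 and Mpp6 with -0.34, and the next events, Met at -0.69 and Cspp1 at -0.57, had 0.0507.

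Called shares were similar across classes of event and levels of exclusion and rose with depth. Cassette exons were called in 261 of 1720 cases (15.2%), alternative 3' splice sites in 4 of 30 and alternative 5' splice sites in 4 of 20. By tertiles of mean exclusion the called share was 14.5%, 16.3% and 14.8%. By tertiles of mean counts it was 6.22%, 15.1% and 24.2%, from the fewest counts to the most. The ratio change had a correlation of 0.0366 with the GC content of the gene's longest transcript over 1737 events, which share the same 13 libraries.

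The largest rises of exclusion in the high-numbered mice were those of Dysf, Fn1 and Rai14. Values of single high-numbered mice are given in the order WT 402, WT 404, HET 420, HOMO 403 and HOMO 421. Fn1 encodes fibronectin, a matrix glycoprotein whose alternative exons are a textbook case of regulated splicing. Exclusion of its cassette exon (chromosome 1, 71659224 to 71661933 as the files give it, on a build that is not GRCm38) was 3.4 to 14.3% in the 8 low-numbered mice, with a median of 6.28%. It was 27.0, 13.1, 25.6, 23.1 and 41.5% in the high-numbered mice. The groups did not overlap within a genotype, and WT 404 lay below the highest low-numbered mouse, HOMO 35. The change was 2.04 ± 0.33 (SE) with an adjusted p of 6.37e-05 by limma. The event had few counts, 56 to 176 per mouse. Dysf, which encodes the membrane repair protein dysferlin, had the largest change of all, 2.75 ± 0.40 (SE), on still fewer counts (22 to 84). Its exclusion was 14.0 to 50% in low-numbered and 85.0, 65.5, 81.7, 61.8 and 60.7% in high-numbered mice, and no mouse of the one series entered the range of the other.

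Vegfb, which encodes a vascular growth factor with isoforms that differ at the C terminus, had the smallest p of the panel. Use of the short form at its alternative 3' splice site (chromosome 19, 7059850 to 7060294) was 31.9 to 37.4% in low-numbered mice, with a median of 34.5%. It was 48.7, 50.6, 45.8, 50.5 and 49.5% in high-numbered mice, and the series did not overlap. The log2 change was 0.86 ± 0.075 (SE) with an adjusted p of 1.12e-09, on 2178 to 6517 counts per mouse. It was 0.85 in WT, 0.77 in HET and 0.94 in HOMO mice. Itga6, the alpha-6 chain of laminin-binding integrins, rose as well. Its exclusion was 8.19 to 21.9% in low-numbered and 30.6, 30.0, 26.1, 31.9 and 28.5% in high-numbered mice, again without overlap (chromosome 2, 71687563 to 71693910, change 1.07 ± 0.19, adjusted p = 2.20e-04). Tanc2, a scaffold of the postsynaptic density, rose from a mean of 6.17% ± 0.79 (SD, n = 8) to 10% ± 1.51 (SD, n = 5). Every high-numbered mouse, at 9.50, 9.95, 12.6, 9.07 and 8.97%, lay above every low-numbered mouse.

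Several other events with higher exclusion were apart within each genotype. Rcor3, a partner of the REST repressor complex, was excluded at 3.49 to 6.09% in low-numbered and 6.75 to 15.5% in high-numbered mice, in an event listed 2 times with identical counts (change 1.21 ± 0.22). A further exon of Rcor3 changed the other way, by -0.87, and was not among the called events apart within each genotype. Atp11a, a phospholipid flippase, changed by 0.99 ± 0.17, and Fam107a, a glucocorticoid-induced actin-associated protein, by 0.77 ± 0.13. Ptk2b, the tyrosine kinase Pyk2, changed by 0.95 ± 0.25 and 1500004A13Rik by 1.17 ± 0.30. Both lost the call without HET 420, with changes of 0.82 and 1.03. Ptpru, a receptor-type tyrosine phosphatase at the edge of the threshold, lost it in 8 of 13 fits that left out 1 mouse, all but those without WT 79, WT 402, HET 2, HOMO 34 or HOMO 421, with changes down to 0.59. Rai14, an actin-associated ankyrin repeat protein, changed by 1.79 ± 0.34 but overlapped within WT mice, where WT 402 at 32.5% fell below WT 79 at 35.2%.

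Lower exclusion in the high-numbered mice, that is more inclusion, was called for more events than higher exclusion. Hnrpk (now Hnrnpk), an abundant RNA-binding protein that acts in splicing and translation, was excluded at 10.6 to 14.6% in low-numbered mice, with a median of 11.2%. In the high-numbered mice it was 7.83, 6.82, 7.54, 7.73 and 7.85%, below all of them (chromosome 13, 58497048 to 58498187). The change was -0.69 ± 0.081 (SE) with an adjusted p of 4.07e-07 on 8088 to 16205 counts per mouse. mKIAA0833 (now Camta1), a calmodulin-binding transcription activator, was excluded at 74.4 to 88.9% in low-numbered and 63.4, 58.0, 69.6, 77.6 and 75.8% in high-numbered mice. Here the HOMO mice of the high series entered the range of low-numbered WT mice, while within each genotype the series stayed apart (change -1.01 ± 0.13, adjusted p = 1.22e-06). Epb4.1l3 (now Epb41l3), which links membrane proteins to the spectrin and actin skeleton, was excluded at 15.7 to 29.1% and at 15.2, 9.73, 10.6, 14.7 and 15.3%. Its highest high-numbered mouse, HOMO 421 at 15.3%, lay just below the lowest low-numbered mouse, WT 1 at 15.7%.

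Limch1 and Kif1b fell in exons that were rarely skipped. Limch1, an activator of non-muscle myosin, was excluded at 1.36 to 2.06% in low-numbered mice and 1.02, 0.361, 0.792, 0.503 and 1.04% in high-numbered mice (change -1.27 ± 0.26). Kif1b, a kinesin that carries synaptic vesicle precursors and mitochondria, was excluded at 0.376 to 0.540% and 0.183 to 0.325% (change -0.94 ± 0.18). For both, all high-numbered mice lay below all low-numbered mice, although few of the counts came from the short junction. Sp100, a nuclear body protein, was excluded at 55.9 to 91.4% in low-numbered and 64.9, 74.9, 65.0, 40.2 and 54.1% in high-numbered mice. The series overlapped across genotypes and were apart within each (change -1.20 ± 0.19). Nav3, a microtubule-associated neuron navigator, fell from a mean of 61.9% ± 6.53 (SD, n = 8) to 46.6% ± 5.41 (SD, n = 5). Mll5 (now Kmt2e), a chromatin regulator, fell from 77.2% ± 4.92 to 64.6% ± 7.35, with HET 420 far below the others at 51.8%. Chrm1, the M1 muscarinic acetylcholine receptor, fell from 82.9% ± 3.9 to 74.1% ± 2.18. Without the HET mice the calls of Nav3 (-0.69) and Mll5 (-0.55) were lost, and with no genotype term that of Sp100 (-1.3). The calls of Fgfr1op (now Cep43), a centrosomal protein (change -0.99 ± 0.21), and Nktr, a cyclophilin-related protein (-0.83 ± 0.26), were made on means of 97.2 and 83.3% in low-numbered mice, and that of Nktr was lost without WT 1, 80, 402 or 404, HET 420, or HOMO 34 or 403. Epha5, an ephrin receptor, was called on 14 to 48 counts per mouse and lost its call in 10 of 13 fits without 1 mouse, all but those without HET 3, HET 78 or HOMO 34.

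**Figure D2:**
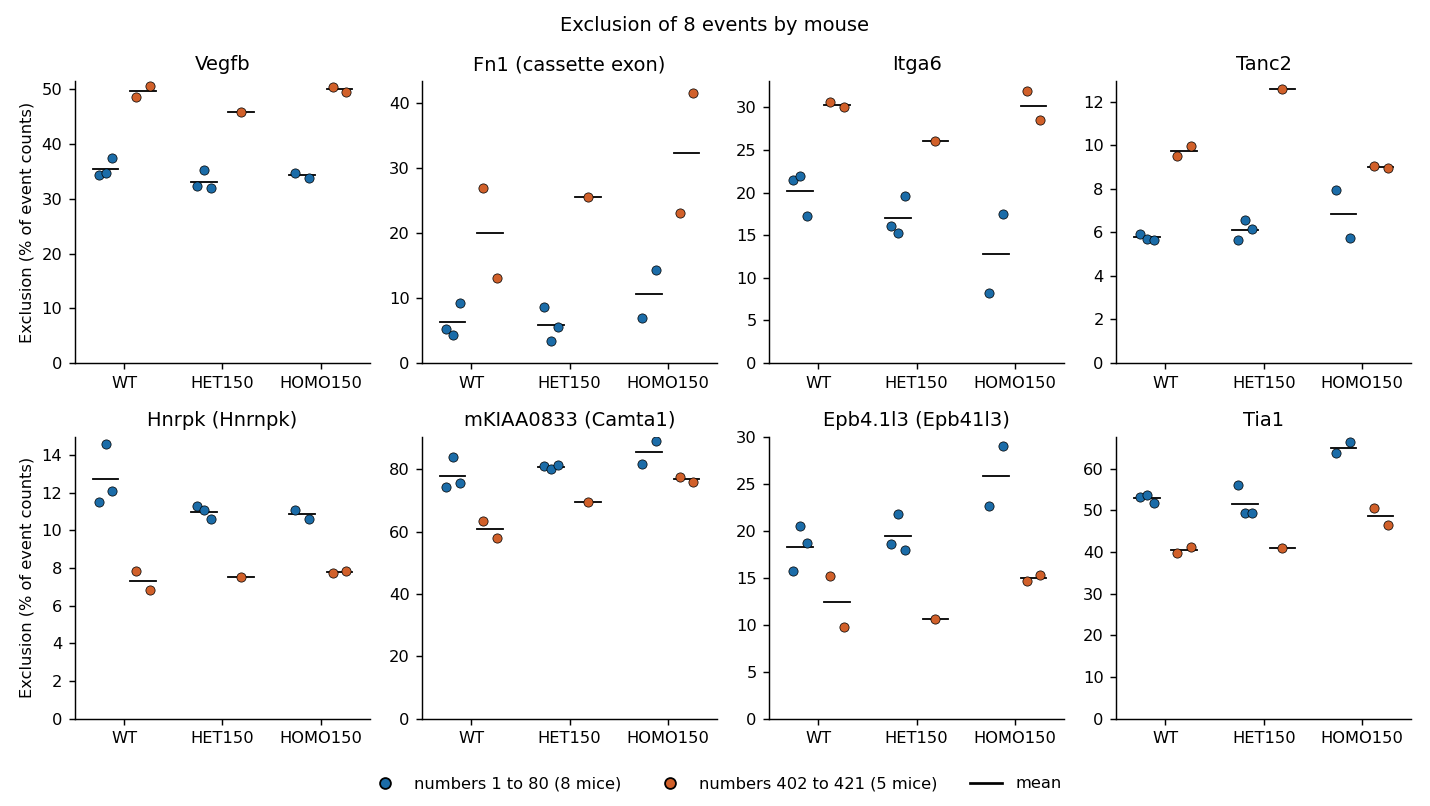
Exclusion, in percent of the counts of the event, of 8 events in each of the 13 mice, by genotype and series. Points are mice, bars are means, and every axis starts at 0. In each panel and genotype the high-numbered mice lie on the same side of the low-numbered mice, above them for Vegfb, Fn1, Itga6 and Tanc2 and below them for Hnrpk, mKIAA0833, Epb4.1l3 and Tia1.

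Among splicing factors and RNA-binding proteins, 18 of 76 events were called (23.7%, against 15.2% of all events), 5 with higher and 13 with lower exclusion. Their median change was -0.04, as over all events. The lists were not matched for depth, and 24.2% of the events in the highest tertile of mean counts were called. Tia1, an RNA-binding protein that promotes use of weak 5' splice sites and of its own alternative exon, was excluded at 49.3 to 66.4% in low-numbered mice. It was excluded at 39.7, 41.1, 40.9, 50.5 and 46.6% in high-numbered mice, which were lower within each genotype (change -0.79 ± 0.14, adjusted p = 3.39e-04). Mbnl2, a regulator of developmental splicing in brain, had 1 event that fell (-0.39) and 1 that rose (0.34). Sfrs3 (-0.35), Upf3b (-0.82), Fubp1 (-0.51) and Tial1 (-0.50) fell, while Rbfox2 (0.43), Celf4 (0.25) and Luc7l2 (0.32) rose. None of the 6 events of Clk and Dyrk kinases and cyclin L, which phosphorylate splicing factors or partner such kinases, was called by limma, where 15.2% of all events were.

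Of 10 events in cold- and heat-responsive genes, 3 were called (30%, against 15.2% of all events), but 2 of the 3 are the same Tra2a counts listed 2 times. Rbm3, a cold-induced RNA-binding protein, was excluded at 77.6 to 88.7% in low-numbered and 91.3, 88.2, 89.3, 94.3 and 83.3% in high-numbered mice. WT 404 and HOMO 421 lay inside the low-numbered range, and the other 3 mice above it (change 0.72 ± 0.17, adjusted p = 3.69e-03, and 0.103 without the variance trend). Tra2a, a splicing activator whose own transcript is spliced in response to stress, was listed 2 times with identical counts and fell from 75.8% ± 4.23 (SD, n = 8) to 64.5% ± 6.98 (SD, n = 5). HOMO 421 at 73.2% and HOMO 34 at 69.2% overlapped.

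Cytoskeleton and motor genes had 19 of 77 events called (24.7%, against 15.2% of all events), 4 with higher and 15 with lower exclusion. Depth was again not matched, and the highest tertile of mean counts had 24.2% called. Cttn, the actin-binding protein cortactin, was excluded at 12.2 to 20.9% in low-numbered and 9.14, 9.94, 10.3, 10.9 and 12.8% in high-numbered mice, so that HOMO 421 alone entered the low-numbered range. Mapt, which encodes tau, fell from 97.2% ± 0.316 (SD, n = 8) to 95.8% ± 0.75 (SD, n = 5) in an exon that is nearly always skipped. Spna2, the alpha chain of brain spectrin, fell (-0.62), as did Kif21a (-0.62), Kif13a (-0.49) and Diap1 (-0.71), while Klc1 (0.31) and Pdlim5 (0.59) rose. Apart from these genes, Arpp21, a neuronal cAMP-regulated phosphoprotein, fell as well (-0.69). Synaptic adhesion and scaffold genes had 15 of 100 events called (15.0%), 5 higher and 10 lower, a share like that of the panel. Camk2b, the beta subunit of calcium/calmodulin-dependent kinase II, fell by -0.997, but was not among the called events apart within each genotype. Camk2d, the delta subunit of that kinase, rose by 0.52.

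Of 60 events in transcription and chromatin genes 16 were called (26.7%, against 15.2% of all events), 7 higher and 9 lower, and their median change was 0.03. Phf20l1 (-1.37) and Tcf7l2 (-0.90) fell without being apart within each genotype, and Ncor1 (-0.34), Zmynd8 (-0.41) and Gtf2i (-0.41) were apart. Ion channel genes had 3 of 22 events called (13.6%), below the share of all events. Kcnip1, an auxiliary subunit of Kv4 channels, fell by -0.37 ± 0.096, and Kcnt1, a sodium-activated potassium channel, by -0.44 ± 0.11. Both lost the call without HET 420 (-0.31 and -0.30), without all HET mice and without the variance trend, and Kcnt1 also with no genotype term (-0.41). Of 11 events in neurotransmitter receptors 2 were called (18.2%, against the same 15.2%). Grik2, a kainate receptor subunit, rose from 89.8% ± 1.49 (SD, n = 8) to 92.6% ± 1.11 (SD, n = 5). The lists were chosen with results of these data known, and their counts describe them without a test.

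The series change ran the same way in mice of different genotype, which share no animal. Within WT mice alone 57 events were called (3.19%), within HET mice 43 (2.41%) and within HOMO mice 24 (1.34%), from contrasts of 2 against 3, 1 against 3 and 2 against 2 mice. These numbers rest on few animals and on the variance trend, without which they were 1, 0 and 0. They ranged from 15 to 61 in WT, 19 to 51 in HET and 7 to 30 in HOMO mice when 1 mouse was left out, and no HET contrast exists without HET 420. The WT number fell past 1.5 times without WT 79 (17), WT 402 (28), WT 404 (15), HET 2 (36) or HET 78 (35), the HET number without HET 2 (22), HET 3 (19) or HET 78 (26), and the HOMO number without HET 2 (15), HOMO 35 (9) or HOMO 403 (7). Of the 57 events called in WT mice, 56 changed in the same direction in HET and 51 in HOMO mice. Of the 43 called in HET mice, 43 did so in WT and 41 in HOMO mice, and of the 24 called in HOMO mice, 21 in WT and 24 in HET mice. Among all 1785 events the shares with the same direction were 66.2% for WT and HET, 62.9% for WT and HOMO, and 63.0% for HET and HOMO mice. Over all events the changes had correlations of 0.415, 0.339 and 0.35 for the same pairs, given as a description, since the events of 1 mouse come from 1 library. The centring of the ratios moved the split within WT mice from 25 higher and 32 lower to 16 and 65, and within HOMO mice from 9 and 15 to 14 and 7.

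**Figure D3:**
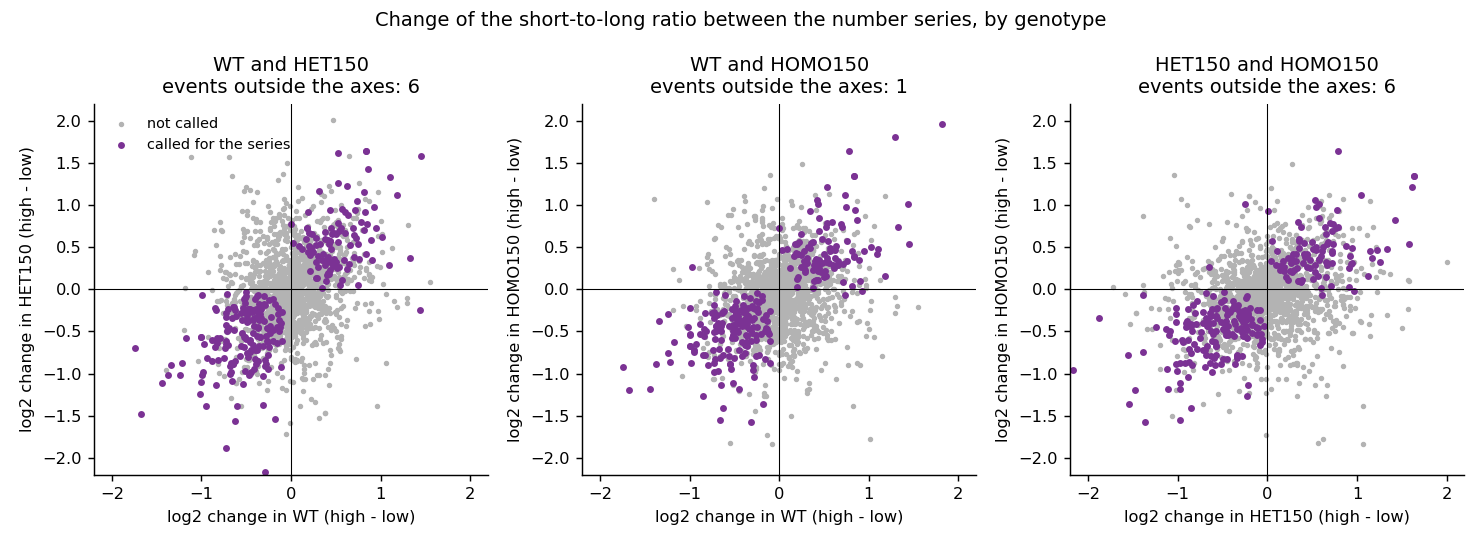
Change of the log2 short-to-long ratio between high- and low-numbered mice in 1 genotype (x axis) against that in another (y axis), 1 point per event, for WT and HET150, WT and HOMO150, and HET150 and HOMO150 mice. Grey points were not called and purple points were called over all 13 mice, a choice that used both axes. Points gather in the lower left and upper right, with correlations of 0.415, 0.339 and 0.35 over all 1785 events, of which 6, 1 and 6 lie outside the axes.

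A change of series that differed between HOMO and WT mice was called for 1 event (0.0560%), in Mtap4 (now Map4), a microtubule-associated protein. No such contrast was run for HET mice. By the same limma fit 103 of 1785 events had an unadjusted p under 0.05, a cutoff that a share of about 0.05 passes with no difference present. The Mtap4 event (chromosome 9, 109965627 to 109969988) was excluded at 82.6, 78.6 and 81.9% in the low-numbered and 84.5 and 80.6% in the high-numbered WT mice, which overlapped. In HOMO mice it was excluded at 84.8 and 85.7% in the low-numbered and 78.3 and 75.7% in the high-numbered mice, which did not. The change in HOMO minus that in WT mice was -0.93 ± 0.19 (SE) with an adjusted p of 0.0493. The Mtap4 interaction call was lost without the variance trend (adjusted p = 0.626) and with centred ratios (-0.75, adjusted p = 0.117). It was also lost without WT 79, WT 402, HET 2, HET 420, HOMO 35 or HOMO 421, with adjusted p from 0.0503 to 0.345.

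Event totals, which sum the same short and long counts that form the ratio, were called for more events than the ratio. The totals of 524 events were called (29.4%), 215 higher (12%) and 309 lower (17.3%) in the high-numbered mice, in 478 genes. In 324 events (18.2%) the totals of the series did not overlap within any genotype. The median absolute log2 change of the called totals was 0.29 and 7 reached 1. Which direction held more calls depended on the scaling. With median-of-ratios scaling 254 were higher and 214 lower, and with the trend on transcript GC removed from each mouse, an alternative chosen after seeing the data, 255 were higher and 228 lower. By tertiles of GC content, 34 totals were higher and 123 lower in the lowest, 62 and 101 in the middle, and 114 and 74 in the highest. The correlation of the change with GC was 0.208 over 1737 events. The part of GC content in single results was not tested beyond that scaling, and the 20 totals recomputed under it kept their call and direction.

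**Figure D4:**
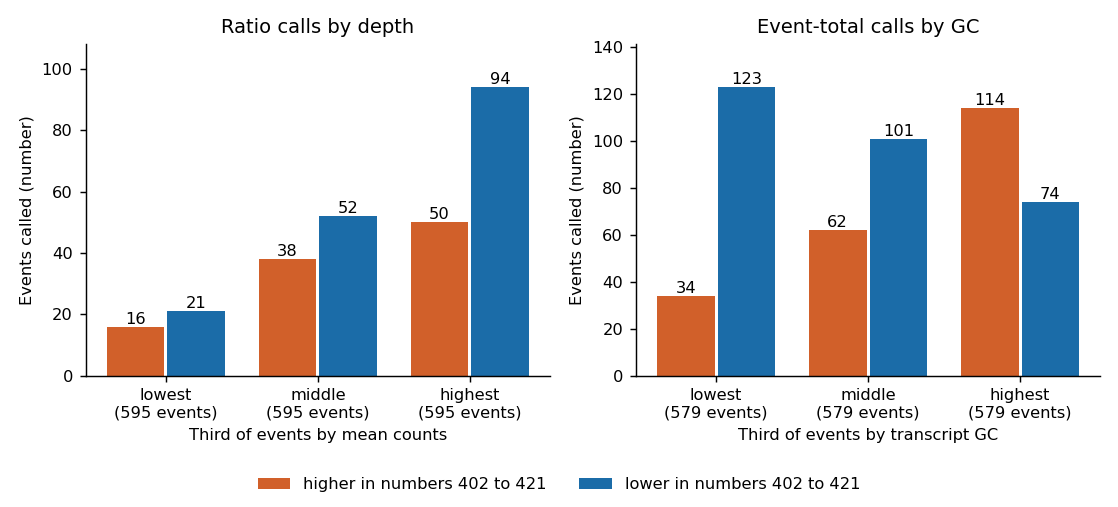
Number of events called in each direction by tertile of mean counts, for the short-to-long ratio (left), and by tertile of transcript GC content, for event totals (right). Ratio calls rose with depth in both directions, and totals went from 34 higher and 123 lower in the lowest tertile of GC to 114 and 74 in the highest.

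Erg and Pecam1, both known from blood vessels, were among the 5 largest rises of totals that were apart within each genotype. Erg, a transcription factor of endothelial cells, had 3.11 to 10.6 CPM in low-numbered mice and 11.3, 10.6, 22.2, 15.3 and 18.3 in high-numbered mice. Pecam1, an adhesion molecule of endothelial cell junctions, had 42.2 to 88.7 CPM and 77.0, 97.5, 131, 138 and 117. Both were apart within each genotype, while HOMO 35 was the highest low-numbered mouse for each. The log2 changes were 1.26 ± 0.19 (SE) for Erg, on 13 to 95 counts per mouse, and 0.97 ± 0.13 for Pecam1. The marker list of endothelium, pericytes and meninges had 3 events in the panel, 1 of Pecam1 and 2 of Fn1, and the totals of all 3 were called higher, against 12% of all totals, with a median change of 0.865 against -0.04 over all events. The total of the Fn1 cassette exon lost its call without WT 404 (0.40) and with no genotype term (0.44). The sum of the 3 ran from 130 to 199 CPM in low-numbered and from 206 to 343 in high-numbered mice. The part of vascular RNA in the Fn1, Itga6 and Vegfb exon changes was not tested. In bulk tissue, more cells of a type and more RNA per cell cannot be told apart. Prom1, the membrane glycoprotein prominin, rose by 1.18 ± 0.14 with HOMO 35 again highest among low-numbered mice, at 100 CPM against 84.8 to 143 in the high-numbered mice. Fbxo34, a subunit of ubiquitin ligases, had 44.1 to 90.3 CPM in low-numbered and 121, 140, 161, 118 and 98.8 in high-numbered mice, without overlap. Its total rose by 1.01 ± 0.14 while exclusion of its exon fell by -0.83 ± 0.23, a call lost without HET 420 (-0.79) or HOMO 403 (-0.71). The total of Vegfb rose too, by 0.66 ± 0.077.

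All 4 oligodendrocyte and myelin events had lower totals in the high-numbered mice, with a median change of -0.46, against 17.3% of all totals called lower and a median of -0.04. Mobp, a structural protein of compact myelin, had 1470 to 2160 CPM in low-numbered and 1570, 960, 821, 847 and 1070 in high-numbered mice. WT 402 thus lay within the low-numbered range across genotypes, but below the 3 WT mice of that series (change -0.83 ± 0.12, adjusted p = 4.71e-05). Plekhb1 fell by -0.56 ± 0.079, Mbp, the myelin basic protein, by -0.36 ± 0.11 and Mag, the myelin-associated glycoprotein, by -0.35 ± 0.091. The 4 summed to 14000 to 23600 CPM in low-numbered and 11700 to 15900 in high-numbered mice, which overlapped. The fall of Mbp was no longer called without WT 404 (-0.31), HET 420 (-0.33), HOMO 35 (-0.30) or HOMO 403 (-0.30), and that of Mag without HET 420 (-0.30). Both calls were also lost without all HET mice, and that of Mbp without the variance trend. In exon usage 0 of the 4 were called by limma, where 15.2% of all events were, and the part of myelin content in other results was not tested. Zbtb20, a transcriptional repressor, had the largest fall that was apart within each genotype, from a mean of 123 ± 33.0 (SD, n = 8) to 53.7 ± 19.4 (SD, n = 5) CPM, with HOMO 403 at 87.1 above the other 4. Sulf1, a heparan sulfate-modifying enzyme, fell further (-1.40) without being apart. Kcnd3, a Kv4 potassium channel, fell from 68.5 ± 6.90 to 40.7 ± 3.43 CPM without overlap, and Snx27, an endosomal sorting protein, and Ttbk2, a tau-tubulin kinase, fell by -0.79 ± 0.13 and -0.76 ± 0.16. Exclusion of the Snx27 exon rose by 0.64 ± 0.22, a call lost without any mouse but HOMO 35 or HOMO 421. The splicing factor list had 30 of 76 totals called (39.5%, against 29.4% of all totals), 9 higher and 21 lower, among them Rbm39 (-0.35), a splicing coactivator. Depth was not matched here, and 227 of 595 totals were called in the highest tertile of mean counts.

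**Figure D5:**
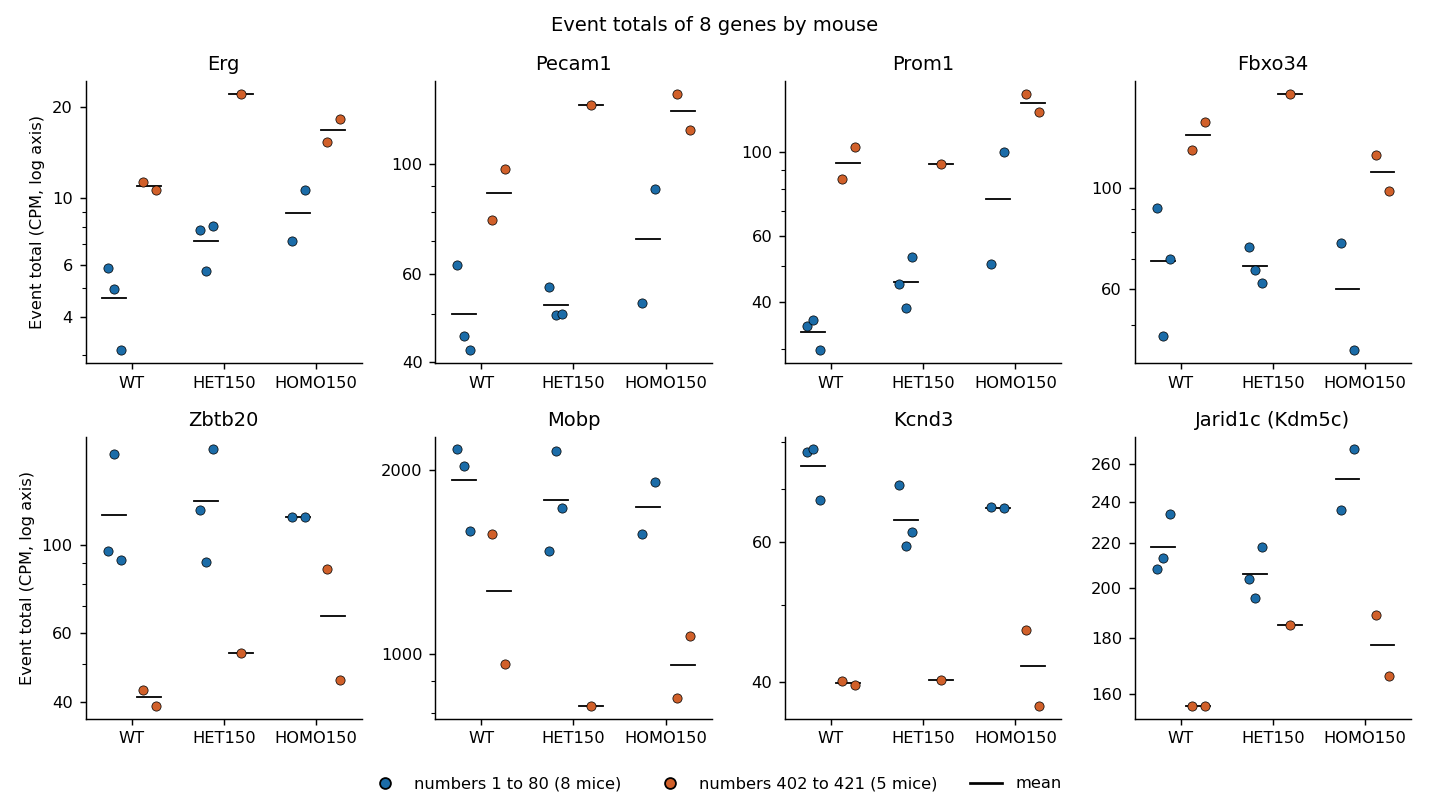
Event totals of 8 genes, in CPM on a log axis, in each of the 13 mice by genotype and series. Points are mice and bars are means. Within each genotype the high-numbered mice lie above the low-numbered mice for Erg, Pecam1, Prom1 and Fbxo34 and below them for Zbtb20, Mobp, Kcnd3 and Jarid1c.

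Other cell markers were few in the panel. Lhx6, a transcription factor of cortical interneurons, had a total of 67.6 to 90.5 CPM in low-numbered and 144, 133, 110, 127 and 131 in high-numbered mice, without overlap (change 0.66 ± 0.090, adjusted p = 3.78e-05). The other interneuron gene listed, Erbb4, changed by -0.02 and was not called. Of 3 astrocyte events the total of Slc4a4 was called (0.29), a share of 33.3% against 29.4% of all totals, and Ndrg2 changed in exon usage by 0.32 ± 0.075, within a range of 94.7 to 96.8% exclusion over all mice, a call lost with no genotype term, without the variance trend or without the HET mice. Cux1, the excitatory neuron marker listed, was not called (0.18). The lists of microglia, choroid plexus and striatal projection neurons had no event here, so the labelled tissue could not be checked further by markers.

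The 2 genes of the sex-linked list, Kdm6a and Jarid1c (now Kdm5c), are histone demethylases on the X chromosome that escape X inactivation. Their 3 events all had lower totals in the high-numbered mice, against 17.3% of all totals. The first event of Kdm6a (X, 17823542 to 17825395) had 93.7 to 151 CPM in low-numbered and 72.8, 72.9, 76.6, 67.2 and 80.7 in high-numbered mice, without overlap (change -0.62 ± 0.096). The second Kdm6a event fell by -0.43 ± 0.082, and that of Jarid1c by -0.41 ± 0.071, from 196 to 268 CPM to 156, 156, 185, 189 and 166, again without overlap. The sum of the 3 was 379 to 520 and 313 to 334 CPM. Exclusion of the Jarid1c exon fell as well, from a mean of 19.5% ± 4.70 (SD, n = 8) to 14.1% ± 3.7 (SD, n = 5), a call lost with no genotype term (-0.57). The panel listed 0 events of Xist and of the Y chromosome, the methods call the sexes balanced, and whether sex was shared unequally between the series was not tested.

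The exons that the study examined by RT-PCR, and those of Hnrpdl and Rbm5, were not called, apart from that of Mlx. Mtap7d2 (now Map7d2), a microtubule-associated protein, was excluded at 2.03 to 4.46% in low-numbered and 2.10 to 3.64% in high-numbered mice (change -0.02 ± 0.14). Mag changed by 0.13 ± 0.10, the 2 exons of Hnrpdl by -0.31 ± 0.11 and 0.05 ± 0.072, and the 3 of Rbm5 by -0.29 ± 0.25, 0.07 ± 0.23 and 0.05 ± 0.10, with adjusted p from 0.0542 to 0.945. Mlx, a partner in glucose-sensing transcription factor complexes, was called. Its exclusion in WT mice was 14.1, 16.0 and 15.4% in the low-numbered and 23.5 and 24.6% in the high-numbered animals. In HET mice it was 23.9, 23.1 and 22.6% against 33.1% and in HOMO mice 37.7 and 34.0% against 42.8 and 30.7%. The series were thus apart in WT and HET and overlapped in HOMO mice. Its change was 0.53 ± 0.17 (adjusted p = 0.0357) and lost the call without WT 1, 80, 402 or 404, HET 78 or 420, or HOMO 403, with changes from 0.46 to 0.51. It was also lost without the variance trend (adjusted p = 0.061), with no genotype term (0.268), without the HET mice (0.194) and in a quasi-binomial model (change 0.40, adjusted p = 0.121).

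Mean exclusion over all events was 44.5 to 44.9% in WT, 45.4 to 45.7% in HET and 46.0 to 46.9% in HOMO mice. The genotype-adjusted difference, high-numbered minus low-numbered, was -0.338 points against a residual SD of 0.246, with p = 0.075 by an exact two-sided permutation of the series within genotypes over 240 arrangements. With the median over events in place of the mean it was -0.0845 points (exact p = 0.883), and with pooled counts -0.133 points (exact p = 0.571). Without WT 404 it was -0.427 points with p = 0.0312 by the same exact test over 96 arrangements.

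Wild-type mice of the other sets, of other lines and ages and with files of their own, gave these exons a range to set beside the series. The labels do not separate the WT mice of the Q175 set from those of the Q150 set, since the titles of both open with Q150, so these 5 are the remaining Q7/Q7 mice, placed in the Q175 set by the naming of their tables. Of the 271 called events, 268 were listed there. The mean of the 3 WT mice of the R6/2 set was nearer to the low-numbered WT mice in 203 of them (75.7%), while that of the 5 WT mice of the Q175 set was nearer to them in 143 (53.4%). Vegfb had 33.0 to 36.4% in the R6/2 set, as in the low-numbered mice, and 45.3 to 49.5% in the Q175 set, as in the high-numbered mice. Exclusion of the Fn1 exon was 3.31 to 8.54% and 19.0 to 49.5%, that of Itga6 12 to 21.2% and 24.0 to 33.1%, and that of mKIAA0833 73.2 to 80.8% and 64.6 to 70.8%, in the same order of sets. Hnrpk, at 9.72 to 11.5% and 9.10 to 9.80%, and Tanc2, at 4.42 to 6.07% and 6.44 to 8.39%, are given in the same order. These exons are examples, and the Q175 set was nearer to the high-numbered WT mice in 125 of the 268 events. Other named exons of that set were nearer to the low-numbered WT mice. Among them were Rcor3 at 3.78 to 6%, Kif1b at 0.421 to 0.653%, Tra2a at 73.8 to 84.8% and Rbm3 at 79.7 to 88.8%.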

How the data were processed

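The authors prepared 1 RASL-seq library per mouse from total cortical RNA. Probe pairs were annealed, selected on oligo(dT) beads, ligated and amplified by PCR. No molecular identifiers are stated, so errors from counts cover counting error only. The deposited values, of the unit recorded as other, are short and long junction counts with no normalization, as the authors left them. Commas inside large values were taken out. Because of them the unit was not recorded as counts, and limma on ratios was the test. No value listed for these mice was under 4, so the lists had been filtered before deposit. The aligner is not given in the sources used here. The labels name build mm10, but 242 of 1733 events matched to a gene on their chromosome lay inside it on GRCm38, so positions are printed as deposited and no sequence was read by them. Symbols were updated through RefSeq for 246 events.

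Groups and mouse numbers came from the labels. log2((short + 0.5) / (long + 0.5)) was modelled on genotype group and series with limma 3.58.1 (R 4.3.3), with a variance trend on a depth term, log2(h + 0.5), where h is the product of both counts over their sum, averaged over mice, and Benjamini-Hochberg adjustment over 1785 events at 0.05. A minimum mean of 10 counts removed 0 events. Event totals were log2 of (short + long + 0.5) scaled to 1000000 counts per mouse, fitted alike with a trend on the mean. Within-genotype contrasts and the interaction used 1 mean per genotype and series. The samples are separate mice per the labels. Fits were tested on simulated data. GC content came from the longest GENCODE transcript of each gene.

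Named events were called events apart within each genotype, the 12 largest in each direction, up to 3 of each gene list by p, all events of Mtap7d2, Mag, Mlx, Hnrpdl and Rbm5, and the 5 largest rises and falls of totals. Rai14, Kdm6a, Lhx6, Erbb4, Cux1, Slc4a4, Sulf1, the further list members given with 1 value, the events of the marker lists and the edge of the threshold were added after their values had been seen. The members, lists and rules were chosen with earlier results of these data known. Alternatives were other minimums, pseudocounts, centring, scalings, models and genotype terms, and leaving out each mouse. Some events that these rules pick are not reported here. Figures were drawn with matplotlib 3.10.9.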

Additional observations from a re-analysis of the deposited data

Results flagged for a closer look

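In the contrast of HOMO with WT mice, the series change of 1 event, that of Mtap4, was called as different, by -0.93 on the log2 scale. Its adjusted p of 0.0493 by limma was just under the threshold, and the call was lost without the variance trend, with centred ratios and without any of 6 single mice. Single mice stood far from the others of their series in 8 of 114 sets of values tested, after the genotype differences fitted together with the series had been removed. Chance flags about 1 in 20 sets of independent values, and these values share a fit and are not independent. The gap to the nearest mouse, as a share of the range of the series, was 0.749 for 1500004A13Rik in HOMO 421 (exclusion 97.2%) and 0.583 for Tanc2 in HOMO 34 (7.96%). It was 0.747 for Mll5 in HET 420 (51.8%), 0.8 for Epb4.1l3 in WT 402 (15.2%) and 0.71 for Hnrpk in WT 79 (14.6%). It was, for Mlx, 0.563 in HOMO 34 (37.7%) and 0.803 in HOMO 421 (30.7%). The total of Zbtb20 had a gap of 0.793 in HOMO 403 (87.1 CPM).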

How the results depend on the processing

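Where the reported fit called 271 events, 125 were called without the variance trend, 94 without the genotype term, 124 without the HET150 mice and 130 with an absolute log2 change of at least 0.5. Across all single mice left out the number was 154 (without HET 420) to 283. All 271 events kept their direction in each of these fits in which they were tested. The variance trend and the cutoff on the change leave each change as it was, and fits without 1 mouse share the other mice. The kept direction is therefore no independent check. Keeping 1 of each set of events with identical counts, chosen after seeing the data, gave 268. Where it called 524 totals, 292 were called without the genotype term and 370 (without HET 420) to 529 without 1 mouse. Without the variance trend 1 event was called within WT, 0 within HET and 0 within HOMO mice and 0 for the interaction, for which centring gave 3 events. Leaving out 1 mouse gave 15 to 61 events within WT, 19 to 51 within HET, 7 to 30 within HOMO mice and 0 to 6 for the interaction. The mean exclusion difference was -0.38 points (exact permutation p = 0.0375) at a minimum mean of 50 counts and -0.427 to -0.252 without 1 mouse, with p under the threshold without WT 404 (0.0312) and above it without each other mouse. Of 44 called named ratios 26 were called in every fit, and of 20 named totals 17. No called named value changed sign in these fits, while several named values that were not called did, such as those of Rbm5 and Mtap7d2. No paired analysis was possible because the mouse numbers are unique to each animal and no number occurs in more than 1 genotype.

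With 1 high-numbered HET mouse, the spread of that cell was taken from the others. Changes of events with few counts, such as Dysf, Epha5 and Erg, carry counting error, and for an event with few counts a missing call does not show that exclusion was equal.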
